A study of Mus musculus with 4 samples.

Results

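*Tnf*, which encodes tumor necrosis factor, and 9 genes of its receptors and their first signalling proteins were examined in liver sinusoidal endothelial cells (LSECs), the endothelium that lines the capillaries of the liver. The 10 genes, of 21887 protein-coding genes in the gene table of mouse build GRCm38, were the ligand *Tnf*, the receptors *Tnfrsf1a* and *Tnfrsf1b*, the adaptors *Tradd*, *Traf1* and *Traf2*, the kinase gene *Ripk1*, and the survival genes *Birc2*, *Birc3* and *Cflar*. They were chosen by name as members of the pathway, and all 10 were in the gene table. For each gene, the peaks of H3K27ac in the gene body and in 10 kb on each side were collected. A region within 1 kb of either end of the gene body was called a gene-end region and any other a distal region.

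H3K27ac, an acetylated lysine of histone H3 found at active promoters and enhancers, was profiled with ChIP-Seq. The 2 libraries came from LSECs of mouse liver and are named replicates 2 and 3 after their labels. Each had an input library, not analysed here. In the methods, LSECs were purified from liver cell suspensions with anti-CD146 beads, and mouse lines with a conditional *Col4a1* allele or a dCas9-KRAB transgene, with or without a tamoxifen-inducible Cre driven by the endothelial *Cdh5* promoter, are named as sources. The line, age and treatment of the mice behind these libraries were not given in the sources used here, so no treated group could be compared, and p-values between conditions could not be formed. The labels do not say whether the libraries came from separate animals.

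TNF-α binds 2 receptors. TNFR1, the product of *Tnfrsf1a*, carries a death domain and recruits TRADD, RIPK1, TRAF2 and the ubiquitin ligases cIAP1 and cIAP2 (*Birc2* and *Birc3*) into a membrane complex that leads to NF-κB, and a later cytosolic complex can activate caspase-8 unless cFLIP (*Cflar*) holds it back. TNFR2, the product of *Tnfrsf1b*, has no death domain and binds TRAF proteins directly. In the liver, macrophages are a main source of TNF-α, and endothelial cells answer it with adhesion molecules and chemokines.

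The list of replicate 2 held 26975 peaks and that of replicate 3 held 64498, and the number of reads behind them is unknown. Fold enrichment, taken from the authors' lists, is a peak's signal divided by its background. Values of the 2 libraries were set side by side without a test because there was 1 condition. Of 12 LSEC marker genes, 7 had a gene-end region with peaks of both libraries, called shared here, and all 12 had a gene-end peak of replicate 3 and a shared distal region. Among all protein-coding genes these shares were 44.1%, 53.9% and 39.3%. The 5 LSEC markers without a shared gene-end region had replicate 3 peaks there, some of them weak. Their fold enrichments were 4.15 (*Mrc1*), 4.56 (*Clec4g*), 5.86 (*Stab2*), 10.0 (*Tek*) and 18.9 (*Ramp2*). With only the 5′ start site counted as a gene end, 3 of the 12 had a shared region there, and 36.7% of all genes did. Among markers of other liver cells, a shared gene-end region was found for 1 of 8 Kupffer cell and macrophage genes, 0 of 8 hepatocyte genes, 0 of 8 hepatic stellate cell genes, 1 of 7 lymphocyte genes, and 0 of 5 cholangiocyte genes. The exceptions were *Cd68* and *Cd79a*. A shared distal region was found for 2 of the Kupffer cell, 3 of the hepatocyte (37.5%), 0 of the stellate cell, 3 of the lymphocyte (42.9%) and 0 of the cholangiocyte genes, so the hepatocyte and lymphocyte lists were near the share of all genes for distal regions.

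The promoters of the ligand, the receptors, *Ripk1* and *Birc3* are shown because they differ in whether peaks of both libraries covered them. Each is the 250 bases before a RefSeq start site in GRCm38.p6, given 5′ to 3′ on the strand of the gene. Capitals mark matches to the TATA box (TATAAA) or to the ETS family motif (CCGGAAG), searched on both strands.
*Tnf*, chr17:35202008-35202257, minus strand: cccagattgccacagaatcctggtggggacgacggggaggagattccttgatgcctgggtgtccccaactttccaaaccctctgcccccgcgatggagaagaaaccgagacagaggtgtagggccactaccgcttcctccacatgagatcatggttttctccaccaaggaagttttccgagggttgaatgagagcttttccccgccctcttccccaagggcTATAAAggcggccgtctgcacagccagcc
*Tnfrsf1a*, chr6:125349473-125349722, plus strand: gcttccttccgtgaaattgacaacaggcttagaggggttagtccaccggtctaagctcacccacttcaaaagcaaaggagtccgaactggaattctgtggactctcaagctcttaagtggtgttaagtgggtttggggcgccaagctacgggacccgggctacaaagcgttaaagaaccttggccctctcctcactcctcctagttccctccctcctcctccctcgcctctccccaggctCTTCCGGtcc
*Tnfrsf1b*, chr4:145246871-145247120, minus strand: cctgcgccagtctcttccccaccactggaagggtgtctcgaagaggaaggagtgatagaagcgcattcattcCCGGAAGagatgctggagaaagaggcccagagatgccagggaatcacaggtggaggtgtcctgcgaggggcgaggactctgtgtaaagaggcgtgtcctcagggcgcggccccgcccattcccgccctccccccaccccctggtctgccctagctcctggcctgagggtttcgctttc
*Ripk1*, its downstream start site, chr13:34002624-34002873, plus strand: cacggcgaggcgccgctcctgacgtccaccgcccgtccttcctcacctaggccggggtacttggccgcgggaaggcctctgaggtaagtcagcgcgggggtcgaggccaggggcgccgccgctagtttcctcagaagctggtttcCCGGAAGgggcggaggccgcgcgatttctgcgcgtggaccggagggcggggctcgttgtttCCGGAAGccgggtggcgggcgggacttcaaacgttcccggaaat
*Birc3*, chr9:7873171-7873420, minus strand: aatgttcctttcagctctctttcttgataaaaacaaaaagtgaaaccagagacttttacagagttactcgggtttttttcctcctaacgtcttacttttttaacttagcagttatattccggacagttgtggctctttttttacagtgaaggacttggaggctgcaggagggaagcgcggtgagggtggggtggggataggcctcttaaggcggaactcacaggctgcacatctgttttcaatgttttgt

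Peaks of both libraries covered at least part of the windows of *Tnfrsf1a*, *Ripk1* and *Birc3* shown above. The window of *Tnf* was touched only by a peak of replicate 3, over 95 of its 250 bases, and the window of *Tnfrsf1b* by no peak. Promoter sequences were matched for 9 of the 10 genes. Among the other windows, those of *Traf2* and of both start sites of *Birc2* were covered in both libraries, and those of *Traf1* and *Cflar* in replicate 3 only. Over all 21263 promoter windows, 42.5% lay under a shared region. The share was 72.1% for windows with at least 10 CpG dinucleotides and 12.9% for those with fewer. The windows of *Traf2*, *Ripk1* and *Birc2* held 19 to 32 CpG. That of *Traf1* held 4 and lay under no shared region, so these genes stood on the more frequent side of that split. The windows of *Tnf* with 10 CpG and *Tnfrsf1b* with 12 lay under no shared region, and those of *Tnfrsf1a* with 9, *Cflar* with 7 and *Birc3* with 6 lay under one, so these stood on the less frequent side. For *Cflar*, the bases of the shared region over the window came from replicate 3.

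The TATA box of *Tnf* lay at positions -29 to -24 from the start site. ETS motifs lay at -10 to -4 in *Tnfrsf1a*, as CTTCCGG on the strand shown, at -178 to -172 in *Tnfrsf1b*, and at -105 to -99 and -44 to -38 in *Ripk1*. An ETS motif also lay at -105 to -99 from the downstream start site of *Birc2*, and a pair of overlapping TATA matches from -134 to -127 in *Cflar*. The ETS motif was present in 8.98% of all promoter windows and the TATA box in 11.6%. The NF-κB consensus, present in 7.91% of all windows, and the AP-1 motif TGANTCA, present in 6.13%, had no match in the windows of the 9 genes. These motifs are matches of letters in 250 bases and not sites known to be bound.

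A shared gene-end region was found for 8 of the 10 genes, all but *Tnf* and *Tnfrsf1b*. Among all protein-coding genes the share was 44.1%. Shared distal regions were found for 8 of the 10 genes, all but *Tnfrsf1b* and *Birc2*, against 39.3% of all genes. Gene length affects both shares. Of genes with bodies of 10 to 50 kb, as 8 of the 10 members are, 52.8% had a shared gene-end region and 42.4% a shared distal region. Counted by regions with a replicate 2 peak, 8 members had a gene-end region (all genes, 44.1%) and 8 a distal one (39.5%). By regions with a replicate 3 peak, 9 members had a gene-end region (53.9%) and all 10 a distal one (60.6%). On its own peaks, replicate 2 had one within 1 kb of an end of 7 members, without *Traf1*. The share of all genes on that measure was not computed. When shared peaks had to cover at least 50% of each other, 3 members kept a shared gene-end region, *Ripk1*, *Birc2* and *Birc3*, and the share among all genes fell to 22.4%.

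The windows of the 10 genes held 62 distinct regions, 29 of them shared and 33 with a peak of replicate 3 only. None was found in replicate 2 only. *Birc2* and *Birc3* are neighbours, and 3 regions fell in the windows of both. Of the regions with a replicate 3 peak, 46.8% also had a replicate 2 peak, against 37.6% over the genome. The shared regions had a median replicate 3 fold enrichment of 25.5, with a range of 4.54 to 105.5, and those seen in replicate 3 only had a median of 5.26, with a range of 3.41 to 17.6. Over the genome these medians were 27.03 and 6.20. The summits of the 2 libraries lay within 50 bp of each other in 24 of the 29 shared regions, or 82.8%, against 70.5% of all shared regions.

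**Figure D1:**
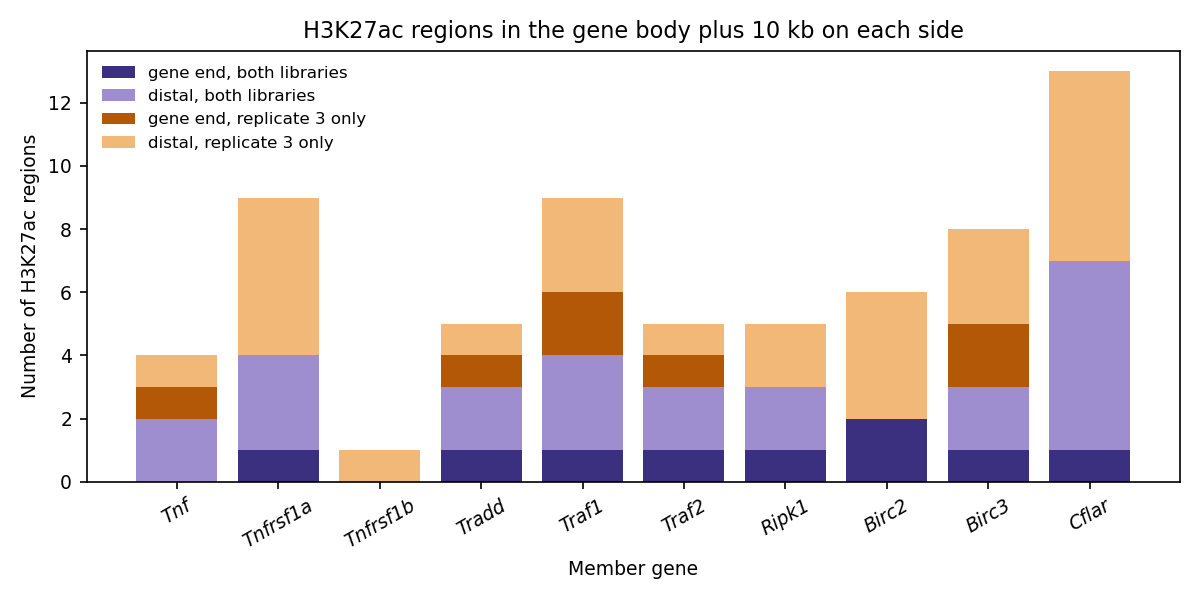
Number of H3K27ac regions (y axis) in the gene body and 10 kb on each side of each gene (x axis), split by place and by whether both libraries or replicate 3 alone had a peak. *Cflar* had 13 regions, 7 of them shared, and *Tnfrsf1b* had 1, seen in replicate 3 only.

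*Tnf* is a short gene of 2.64 kb on the minus strand of chromosome 17 (35199367 to 35202007), between the genes of the related ligands lymphotoxin α (*Lta*) and lymphotoxin β (*Ltb*). No peak of replicate 2 lay within 1 kb of its ends. Over its start site was a peak of replicate 3 (35201949 to 35202102) with a fold enrichment of 4.03, at percentile 4.87 of that library's peaks. Inside the gene, 1151 bp downstream of the start site, lay a shared region (35200439 to 35200856), enriched 5.27-fold in replicate 2 and 24.8-fold in replicate 3. In replicate 3 the region in the body was thus the stronger, and in replicate 2 it was the only one that overlapped the gene. That region missed the gene-end limit narrowly, at 1072 bp from the 3′ end.

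The other regions in the window of *Tnf* lay nearer to its neighbours. A shared region 8029 bp upstream of the start site (35210036 to 35210577) was nearest to *Lta* and was enriched 6.64-fold in replicate 2 and 9.56-fold in replicate 3. A region of replicate 3 only (35195619 to 35196245, 13.4) lay 60 bp from an end of *Ltb*. *Lta* itself had no gene-end peak in either library. Macrophages are a main source of TNF-α, and of 8 Kupffer cell and macrophage markers, *Adgre1*, *Clec4f*, *Cd5l*, *Vsig4*, *Csf1r*, *Marco* and *Timd4* had no gene-end peak in either library. *Cd68* had a shared one (9.37 in replicate 2 and 16.0 in replicate 3), and *Csf1r* and *Cd68* were the markers with shared distal regions. In a cell preparation, fewer cells that carry the mark and less of the mark per cell cannot be told apart.

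The 2 receptor genes differed in almost every measure. *Tnfrsf1a*, a gene of 12.8 kb on the plus strand of chromosome 6 (125349723 to 125362483), had 4 shared regions. The region over its start site (125349109 to 125350718) reached 13.5-fold in replicate 2 and 13.3-fold in replicate 3. Over shared regions of the genome, the median ratio of replicate 3 to replicate 2 was 2.47, and the ratio was 1 or less in 2.88%. With a ratio of 0.985, the *Tnfrsf1a* gene-end region was among these. It ranked at percentile 39.0 in replicate 2 and 4.04 in replicate 3 among the 9644 genes with a shared gene-end region, for which the strongest such region of each gene was used.

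Within the body of *Tnfrsf1a*, the strongest shared region in replicate 2 was 2604 bp wide and began 3822 bp downstream of the start site (125353545 to 125356148). It reached 27.2-fold in replicate 2 and 28.4-fold in replicate 3, above the start site region in both. A narrower region near the 3′ end (125359989 to 125360480) had 9.20 in replicate 2 and 30.3 in replicate 3, and the remaining one (125351292 to 125352411) had 6.55 and 13.6. Peaks covered 6.40% of the *Tnfrsf1a* window in replicate 2 and 21.0% in replicate 3. These were at percentiles 97.6 and 99.2 of all protein-coding genes, whose medians were 0.584% and 2.07%. Of its 5 regions with a replicate 3 peak only, 3 were nearer to *Plekhg6*, a gene 167 bp beyond the 3′ end.

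*Tnfrsf1b*, a gene of 34.5 kb on the minus strand of chromosome 4 (145212368 to 145246870), had no peak of replicate 2 in its body or flanks. Its single replicate 3 peak (145214487 to 145214640), with a fold enrichment of 6.19, lay 2119 bp from the 3′ end. The peak nearest to its start site was 51.6 kb away in replicate 2 and 32.2 kb away in replicate 3. The peaks thus covered 0% and 0.283% of the window. The promoter window without peaks was not the poorer in CpG, since that of *Tnfrsf1a* had 55.6% GC and 9 CpG and that of *Tnfrsf1b* 62.8% GC and 12 CpG. The map of peaks by distance from the start site shows the contrast.

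**Figure D2:**
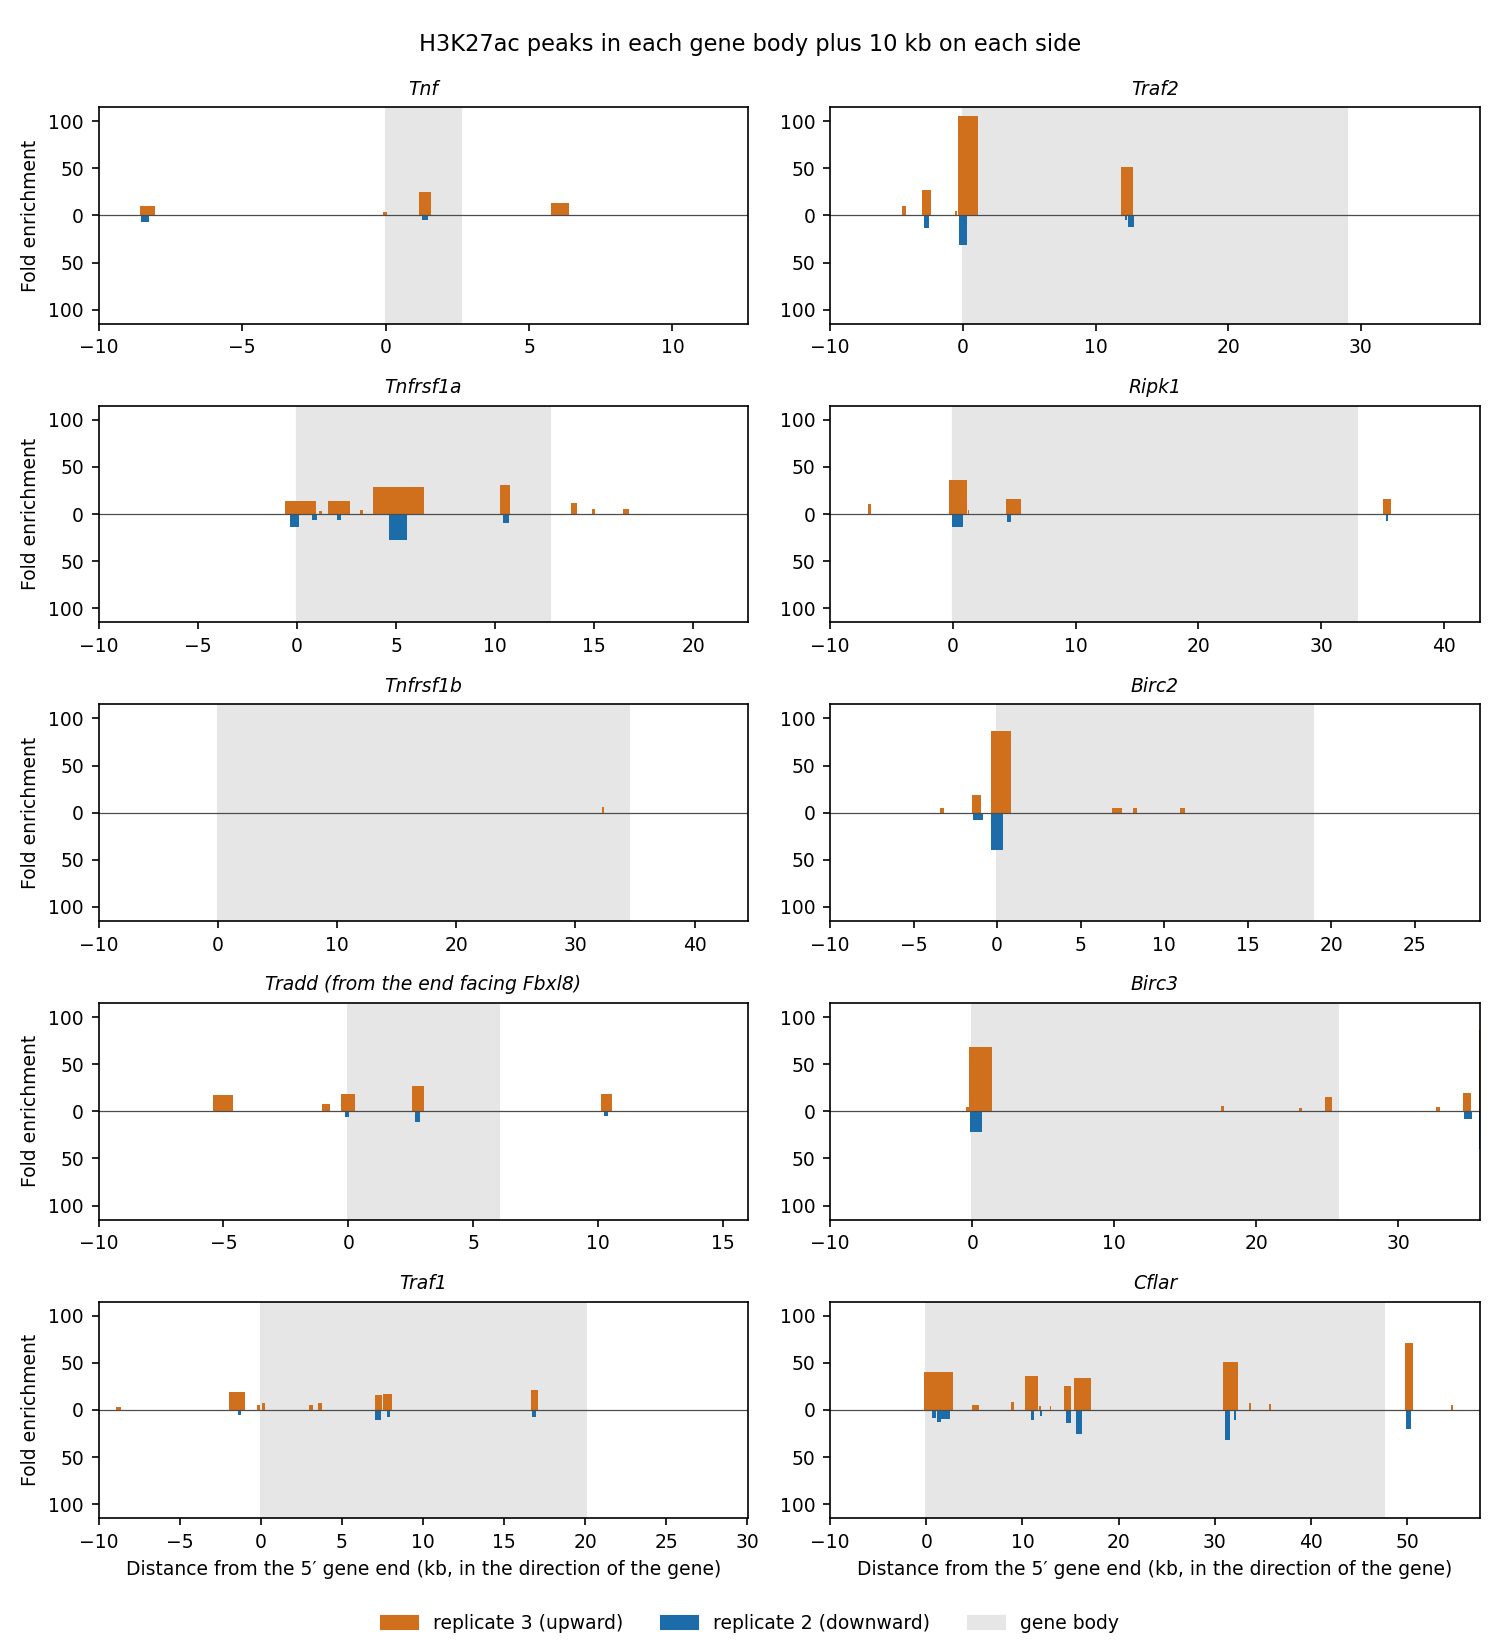
Peaks of H3K27ac around each gene, by distance from its 5′ end (x axis, kb, in the direction of the gene; for *Tradd*, from the end that faces *Fbxl8*), with fold enrichment upward for replicate 3 and downward for replicate 2 (y axis). Grey marks the gene body. Peaks lined the body of *Tnfrsf1a* and *Cflar*, stood at the start of *Traf2*, *Ripk1*, *Birc2* and *Birc3*, and were absent from *Tnfrsf1b* but for 1 peak of replicate 3.

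*Tradd*, whose protein bridges the death domain of TNFR1 to RIPK1 and TRAF2, is a gene of 6.02 kb on chromosome 8 (105258575 to 105264594). One of its ends lies 53 bp from an end of *Fbxl8*, so the shared region there (105264317 to 105264872) cannot be assigned to either gene. It was enriched 6.10-fold in replicate 2 and 18.9-fold in replicate 3. A shared region inside *Tradd* (105261550 to 105262025) was stronger in both libraries, at 11.5 and 26.4. A further shared region in the flank (105254050 to 105254458, 5.42 and 18.2) was nearest to *B3gnt9*.

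*Traf1* and *Traf2* encode related adaptors, and TRAF2 brings the cIAP proteins to the receptor, while TRAF1 lacks the RING domain of the other TRAFs. *Traf2*, on chromosome 2 (25517982 to 25546940, minus strand), had a shared region over its start site (25545819 to 25547327), at 31.2-fold in replicate 2 and 105.5-fold in replicate 3. Its summits were 1 bp apart. *Traf2* also had a shared region inside the body 11.9 kb downstream of the start site (25534080 to 25534998, 12.8 and 51.6), and another 2392 bp upstream of it (25549332 to 25549993, 13.4 and 26.5).

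*Traf1*, on the same chromosome (34941750 to 34961812, minus strand), had no peak of replicate 2 over its start site. The 2 replicate 3 peaks beside that site had fold enrichments of 7.03 and 5.21. Its only shared gene-end region (34962799 to 34963779, 5.62 and 19.4) began 987 bp upstream of the gene body, just inside the limit of 1 kb, and the peak of replicate 2 within it lay outside that limit. *Traf1* is counted as a gene with a shared gene-end region for that reason alone. Inside its body were 3 shared regions. Those at 34953717 to 34954255 and at 34954310 to 34954755 lie side by side, with 7.46 and 10.2 in replicate 2 and 16.6 and 15.3 in replicate 3. The one near the 3′ end (34944701 to 34945129) had 7.46 and 21.5.

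*Ripk1*, whose kinase links TNFR1 to NF-κB and to cell death, lies on the plus strand of chromosome 13 (34002225 to 34035170) and overlaps the neighbouring gene *Serpinb6a* by 570 bp. The shared region over its start sites (34001869 to 34003354) also covered the end of *Serpinb6a*. It was enriched 13.6-fold in replicate 2 and 36.0-fold in replicate 3, and its summits lay 489 bp apart, the largest distance among the shared regions of the 10 genes. A shared region in the body (34006535 to 34007814) had 8.54 and 16.3. The shared region downstream (34037280 to 34037969, 7.46 and 16.0) covered an end of *Bphl*.

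*Birc2* and *Birc3* lie 10.3 kb apart on the minus strand of chromosome 9. *Birc2* (7818226 to 7837131) had a shared region over its start sites (7836298 to 7837514), at 39.7-fold in replicate 2 and 86.5-fold in replicate 3. A second region upstream (7838002 to 7838618) had 7.93 and 19.2. *Birc2* had no shared distal region, and its 4 distal regions of replicate 3 had fold enrichments of 4.56 to 5.26. *Birc3* (7847468 to 7873205) had a shared region over its start site (7871802 to 7873402) with 21.7 in replicate 2 and 68.4 in replicate 3. Its 2 shared distal regions are the gene-end regions of *Birc2*, so *Birc3* had none of its own. At its 3′ end, a region of replicate 3 only (7847898 to 7848355) reached 15.2. Acetylation of both cIAP genes in the 2 libraries was thus highest at the start sites.

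*Cflar*, which encodes the caspase-8 inhibitor cFLIP, had the most regions of the members. The gene lies on the plus strand of chromosome 1 (58711311 to 58758884) and had 13 regions, 7 of them shared. With 6 shared distal regions it stood at percentile 98.4 of all genes, whose mean was 0.804. These counts were not adjusted for length, and the *Cflar* window, at 67.6 kb, was the longest of the members. Per 10 kb of window *Cflar* had 1.04 shared regions, fewer than *Tnfrsf1a* (1.22) and *Tradd* (1.15). A region of 2970 bp (58711119 to 58714088) spanned the start site. It held 3 peaks of replicate 2, the nearest 0.452 kb from the start site, and 1 peak of replicate 3, and it reached 12.9-fold in replicate 2 and 40.4-fold in replicate 3. The 12.9-fold peak (58712402 to 58712788) lay beyond 1 kb from the gene end. The only replicate 2 peak within 1 kb had 8.81.

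Of the shared distal regions of *Cflar*, 5 lay in the body. The region 30.7 kb downstream of the start site (58742167 to 58743765) had 31.7 in replicate 2 and 50.6 in replicate 3, higher than the gene-end region in both libraries. The region at 58726636 to 58728454 had 25.8 and 33.7, and those at 58725586 to 58726396 and at 58721599 to 58722933 had 13.8 and 10.4 in replicate 2 and 25.5 and 36.0 in replicate 3. A weak region (58723043 to 58723334) was lower in replicate 3, at 4.54, than in replicate 2, at 6.10, the only member region besides the *Tnfrsf1a* start site with a ratio of 1 or less. The highest replicate 3 value of the gene stood downstream of its 3′ end (58761125 to 58761960), with 19.9 in replicate 2 and 70.8 in replicate 3. Peaks covered 6.70% of the *Cflar* window in replicate 2, the largest share among the members, and 16.7% in replicate 3.

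Across the 8 genes with a shared gene-end region, the order of fold enrichment in replicate 2 was *Birc2*, *Traf2*, *Birc3*, *Ripk1*, *Tnfrsf1a*, *Cflar*, *Tradd* and *Traf1*. In replicate 3 it was *Traf2*, *Birc2*, *Birc3*, *Cflar*, *Ripk1*, *Traf1*, *Tradd* and *Tnfrsf1a*. *Birc2*, *Traf2* and *Birc3* were the 3 highest in both libraries. *Birc2* and *Traf2* exchanged places between the libraries, as did *Tradd* and *Traf1*, so neither pair was ordered beyond the difference between libraries. *Ripk1*, *Tnfrsf1a* and *Cflar* had 12.9 to 13.6 in replicate 2 and were not in the same order in replicate 3. The replicate 2 value of *Cflar* is that of a peak beyond 1 kb from the gene end. Its replicate 2 peak within 1 kb had 8.81, still between *Tnfrsf1a* and *Tradd*.

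Set against the 9644 genes with a shared gene-end region, whose medians were 16.3 in replicate 2 and 47.2 in replicate 3, *Birc2* stood at percentile 95.4 in replicate 2 and 84.4 in replicate 3. *Traf2* stood at percentiles 87.0 and 92.6, and *Birc3* at 66.8 and 71.6. *Ripk1* and *Cflar* were below the medians in both libraries, between percentiles 35.0 and 40.9. *Tradd* and *Traf1* were between percentiles 2.98 and 10.9. These percentiles use the highest peak of each region, which for *Cflar* and *Traf1* in replicate 2 lay beyond 1 kb from the gene end. The gene-end regions of *Tradd* and *Traf1* were therefore among the weaker ones of all genes that had any in both libraries.

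**Figure D3:**
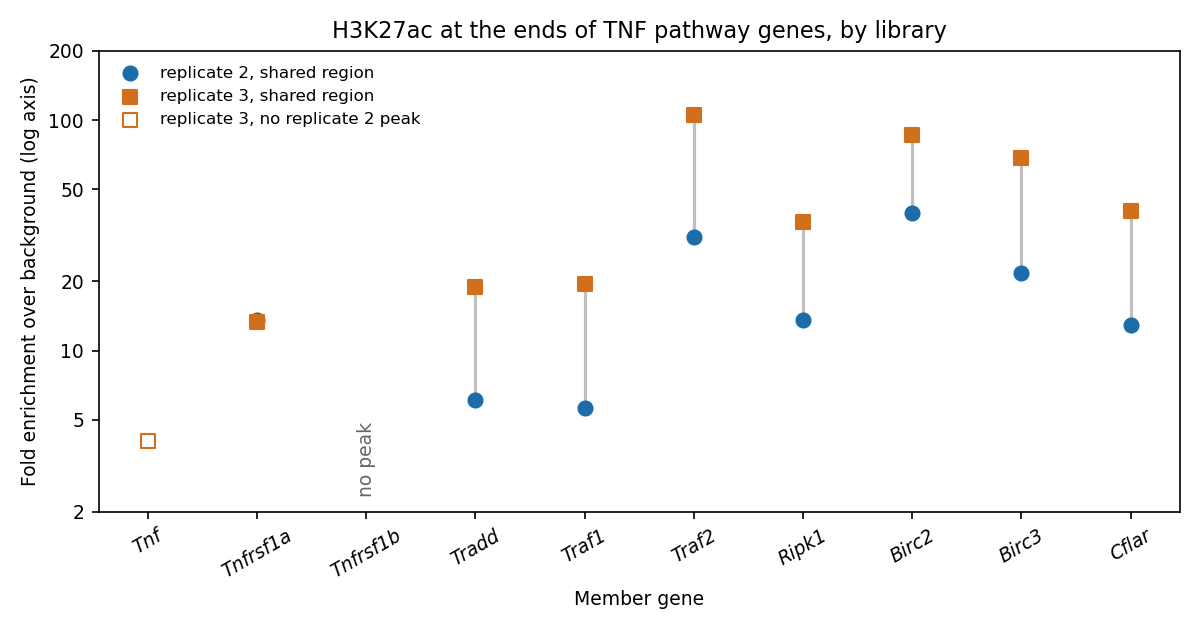
Fold enrichment of the strongest gene-end region of each gene (y axis, log scale) in replicate 2 (circles) and replicate 3 (squares); the open square is a region of replicate 3 only. Replicate 3 was higher than replicate 2 at 7 of the 8 genes with both, and *Tnfrsf1a* had 13.5 and 13.3.

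The partners of the 10 genes were read from 3 further lists. Of 14 genes that act in the receptor complex and toward NF-κB, 12 had a shared gene-end region. The highest in replicate 3 were *Rnf31*, a subunit of the linear ubiquitin ligase LUBAC (25.0 in replicate 2 and 114.3 in replicate 3), *Map3k7*, which encodes the kinase TAK1 (22.3 and 84.0), and *Sharpin*, another LUBAC subunit (25.1 and 73.8). *Tank* had no gene-end peak in either library, and *Map3k5*, the kinase ASK1 of the stress arm, had a weak peak of replicate 3 only (4.54). In their windows, *Tank* had 2 shared distal regions and *Map3k5* had 3.

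Of 7 genes of the death arm, 6 had a shared gene-end region. *Ripk3*, the kinase of necroptosis, had 10.7 in replicate 2 and 43.1 in replicate 3, and *Bid*, which carries the signal to mitochondria, had 16.3 and 38.1. *Casp8*, the target of cFLIP, had a gene-end peak in replicate 3 only (12.1) and 2 shared distal regions.

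Genes that limit or process the signal had a shared gene-end region in 10 of 10 cases. *Cyld*, a deubiquitinase that trims the chains on RIPK1, had 48.8 in replicate 2 and 136.0 in replicate 3, *Adam17*, the protease that sheds TNF-α and its receptors, had 32.1 and 96.1, and *Otulin*, which cleaves linear chains, had 34.5 and 81.9. The share of genes with a shared gene-end region was thus 80% for the members, 85.7% for the receptor complex and for the death arm, and 100% for the brakes, beside 44.1% of all genes. When shared peaks had to cover at least 50% of each other, fewer genes of each list kept one. These were 3 of 10 members, 10 of 14 receptor complex genes, 2 of 7 death arm genes and 4 of 10 brakes, beside 22.4% of all genes. The lists differ in size and were chosen by name, so these shares describe the lists and were not tested.

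**Figure D4:**
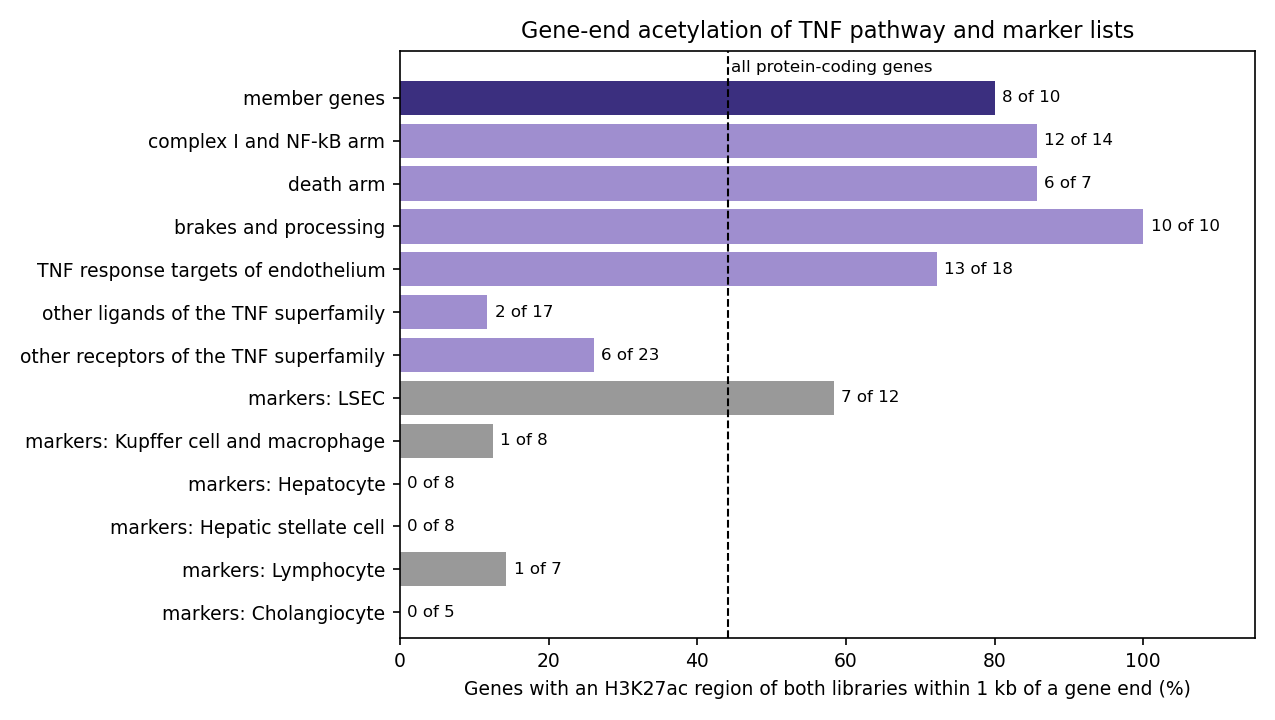
Share of genes with a shared H3K27ac region within 1 kb of a gene end (x axis, percent) for the 10 member genes, 6 pathway lists and 6 marker lists (y axis), with counts beside the bars and all protein-coding genes (44.1%) as the dashed line. With shared regions defined by an overlap of 1 bp, signalling lists reach 85.7% to 100%, and the other ligands of the superfamily 11.8%.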

How the data were processed

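H3K27ac ChIP-Seq of 2 LSEC libraries was analysed from 1 peak list per library, called separately. The submitters' processing notes name cutadapt 0.4.4, BWA 0.7.17, Picard 1.67, MACS2 2.0.10 and bedtools 2.27.1, and build mm10, without role or order. The methods describe tagmentation of chromatin, and the labels describe sonication and a ligation-based library kit. Whether the 2 inputs entered the peak calls was not given in the sources used here. The deposited lists give the authors' fold enrichment as a ratio, the −log10 of their p-value and q-value, a rescaled score, and the summit. The largest deposited q-values were 0.00907 and 0.00981. Reads are not given, so depth is unknown, and no interval was formed. A library with more peaks finds more regions, and regions called shared are then limited by the list of replicate 2.

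Peaks were merged across libraries, and regions with peaks of both (1 bp or more) were called shared. The fold enrichment of a region is its highest peak. Gene bodies and promoter windows came from RefSeq, GRCm38.p6. The members, lists and motifs were chosen with earlier results of these data known. Named genes are all members, neighbours of regions, and, in the lists of pathway partners and targets, the genes without a shared gene-end region and the 3 with the highest values in replicate 3. For the superfamily and marker lists the genes without one are mostly given as counts, and the other genes named there were chosen after their values were seen. A gene that this rule names is not reported here. The scripts were tested on simulated data. The alternative settings, 9 in all, changed the q-value limit, the number of peaks, the overlap, the gene-end distance, the flank, the assignment to genes and the libraries, and 2 more were added after the data were seen. The software was pandas 2.3.3 and numpy 2.4.6 under Python 3.11.15, with figures from matplotlib 3.10.9.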

Additional observations from a re-analysis of the deposited data

How the results depend on the processing

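The counts of 8 members with a shared gene-end region, 8 with a shared distal region, 9 shared gene-end regions and 22 shared distal regions were recomputed under 11 alternatives, and 37 of the 44 values were within 1.5 times the count given. With a reciprocal overlap of at least 50%, 3 members kept a shared gene-end region, with 4 such regions and 10 distal regions. Gene ends within 2.5 kb gave 15 gene-end regions, and a flank of 50 kb gave 50 distal regions. With 1 library left out, regions kept the extents merged over both libraries. Those with a replicate 2 peak numbered 9 at gene ends and 22 distal, and those with a replicate 3 peak 16 and 49. No member region was seen in replicate 2 only, so leaving out replicate 3 could only return the main counts. Gene-end regions are defined without the flank, so the settings that changed the flank could only return the main gene-end counts. Values fixed in these ways are among the 37. The cause of the higher counts with replicate 3 was not tested. Over all alternatives, members with a gene-end region ranged from 3 to 9, and the share of all genes from 22.4% to 53.9%. Members with a distal region ranged from 6 to 10, and the share of all genes from 19.4% to 66.7%. The count of 10 came with a flank of 50 kb (66.7% of all genes) and with replicate 3 alone (60.6%). The count of 6 came with the reciprocal overlap (25.2%) and with regions nearest to the gene's own end (23.0%). Using only the 5′ start site gave 6 members with a gene-end region, against 36.7% of all genes. It left out *Tradd*, which has no entry in the promoter table, and *Traf1*. Requiring bases under both peaks gave 7, against 43.4% of all genes. Both were chosen after seeing the data. No paired analysis was possible because no comparison between groups was made. Read depth, which is unknown, limits every count of regions seen in 1 library only.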

Other observations

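Of 18 genes that endothelial cells are known to induce with TNF-α, 13 had a shared gene-end region, against 44.1% of all protein-coding genes, and 16 had a shared distal region, against 39.3%. With a reciprocal overlap of at least 50%, 6 of the 18 kept a shared gene-end region, against 22.4% of all genes. The highest in replicate 3 were *Sod2*, the mitochondrial superoxide dismutase (37.3 in replicate 2 and 110.9 in replicate 3), *Relb*, an NF-κB subunit (35.2 and 74.5), and *Cxcl2*, a neutrophil chemokine (25.8 and 64.5). *Sele*, *Il6*, *Csf2* and *Nfkb2* had no gene-end peak in either library, and *Ccl20* had one of replicate 3 only (4.56). *Sele*, which encodes E-selectin, had 3 shared distal regions all the same, while *Il6* and *Csf2* had no region of either library in their windows.

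Among the other members of the TNF superfamily, 2 of 17 ligand genes and 6 of 23 receptor genes had a shared gene-end region, against 44.1% of all protein-coding genes. A shared distal region was found for 8 of the ligands (47.1%) and 6 of the receptors (26.1%), against 39.3% of all genes. The ligands were *Tnfsf13*, which encodes APRIL (11.5 in replicate 2 and 42.5 in replicate 3), and *Tnfsf10*, which encodes TRAIL (10.8 and 12.4). When the gene end nearest to the region had to be the gene's own, 1 ligand kept a shared gene-end region. Counting only the 5′ start site also left 1. The receptors with the highest values in replicate 3 were *Relt* (14.6 and 59.3), *Ltbr*, the lymphotoxin β receptor (25.8 and 50.1), and *Fas*, a death receptor (14.0 and 43.6), and the others were *Eda2r*, *Tnfrsf12a* and *Cd40*. A gene-end peak was absent from both libraries at 10 of the ligands and 13 of the receptors. In replicate 3, 7 of the ligands and 10 of the receptors had one, against 53.9% of all genes. *Ltbr*, *Fas*, *Relt* and *Eda2r* (14.9 and 36.3) were thus above the gene end of *Tnfrsf1a* (13.5 and 13.3) in both libraries. *Tnfrsf12a* (11.5 and 28.4) and *Cd40* (9.49 and 24.7) were above it in replicate 3 only.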
